A study of Mus musculus with 18 samples.

Results

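The 7 genes described here carry out successive steps of glucose sensing in the beta cell or mark its maturity: Slc2a2, G6pc2, Abcc8, Kcnj11, Gipr, Slc30a8 and Ucn3. They were taken by name for these roles, with earlier results of these data known, and 7 of 7 were found among the 10509 genes of the table. Levels were read in pancreatic islets of 10 mice of the genotype NRK1_BKO (a beta-cell knockout of NRK1 made with Ins1Cre, a Cre recombinase driven by the insulin gene Ins1; called KO) and 8 mice of the genotype NRK1_WT (called WT). All 18 mice ate a high-fat diet for 12 weeks. The sample titles of both groups begin with Ins1Cre, but no label says whether WT mice carried the Cre. The labels give neither age nor sex and do not name the deleted part of Nmrk1, so 3' end reads of that gene (3 to 36 per library) do not check the genotype. The log2 level of Nmrk1 was 1.99 ± 0.49 (SD, n = 10) in KO beside 2.01 ± 0.92 (SD, n = 8) in WT, a log2 difference of -0.03 with a 95% interval of -0.75 to 0.70 (limma adjusted p = 0.997), so no fall of its 3' end reads was measured. NRK1 phosphorylates nicotinamide riboside on a salvage route to NAD, and the comparison asks what its loss from beta cells changes in islet transcripts.

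Beta cells release insulin in proportion to the glucose they take up and break down. Glucose enters through the transporter made by Slc2a2 (GLUT2) and is phosphorylated, a step that the islet glucose-6-phosphatase made by G6pc2 reverses. ATP from glucose breakdown closes a potassium channel built from a sulfonylurea receptor (Abcc8) and a pore subunit (Kcnj11), and the cell then depolarises and takes up calcium. The receptor made by Gipr amplifies release when the gut hormone GIP is present, the transporter made by Slc30a8 (ZnT8) loads zinc into insulin granules, and the peptide urocortin 3 (Ucn3) appears in mouse beta cells as they mature.

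The promoters of Slc2a2, G6pc2 and Ucn3 are shown because homeodomain factors that maintain the mature beta cell, PDX1 and NKX6-1 among them, recognise motifs built around TAAT. Each run is the 250 bases before the gene start in RefSeq (GRCm38.p6), 5′ to 3′ on the gene's strand, at chr3:28697653-28697902 (plus strand), chr2:69210823-69211072 (plus) and chr13:3945350-3945599 (minus). Capitals mark TAAT on either strand.

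Slc2a2: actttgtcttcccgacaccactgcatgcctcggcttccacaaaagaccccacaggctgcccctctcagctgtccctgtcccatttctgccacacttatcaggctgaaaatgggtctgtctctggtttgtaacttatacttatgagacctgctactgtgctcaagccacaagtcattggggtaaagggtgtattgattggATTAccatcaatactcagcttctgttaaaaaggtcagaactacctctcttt

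G6pc2: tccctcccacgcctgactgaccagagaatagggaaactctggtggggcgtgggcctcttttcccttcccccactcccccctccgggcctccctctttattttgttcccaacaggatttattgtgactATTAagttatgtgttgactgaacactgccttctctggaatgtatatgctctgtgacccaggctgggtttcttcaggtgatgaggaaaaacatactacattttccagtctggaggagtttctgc

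Ucn3: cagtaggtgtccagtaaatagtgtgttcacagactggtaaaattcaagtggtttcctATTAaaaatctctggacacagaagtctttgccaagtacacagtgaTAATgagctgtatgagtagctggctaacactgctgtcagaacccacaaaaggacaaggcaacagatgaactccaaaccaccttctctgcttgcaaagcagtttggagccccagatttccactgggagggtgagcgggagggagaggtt

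The Slc2a2 and G6pc2 windows hold 1 TAAT each and the Ucn3 window holds 2. Over 32851 RefSeq promoters of the same length, 54.9% hold at least 1 and 30.8% at least 2, so these counts do not set the 3 windows apart. RefSeq's table also holds a window for G6pc2 that is not at the gene start (chr2:69219699-69219948, plus strand, not printed), with 3 TAAT and 4 CANNTG matches. The E-box CANNTG, which bHLH factors such as NEUROD1 recognise and which reads the same on both strands, occurs once in the Slc2a2 and G6pc2 windows and at 2 places in the Ucn3 window, against 66.2% of promoters with at least 1 and 31.8% with at least 2. Overlapping matches of the motifs were counted separately. A match is a run of letters and not a measured binding site.

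Depth over the listed genes was 2831137 to 4303680 reads per library, and 33 to 346 genes had no read, with the most in WT 7, KO 2 and KO 3. Each library came from 1 mouse going by the animal numbers in the titles, and p-values measure the spread between these libraries. Animal numbers that follow each other and include both genotypes (runs) covered 12 libraries, and KO 1, KO 9, KO 10, WT 6, WT 7 and WT 8 lay outside them. The labels name no batch, and these runs are used only as a check. The beta-cell marker list (5 of 6 measured: Ins1, Ins2, Iapp, Nkx6-1 and Pdx1, all read in every library) had a mean log2 level of 12.99 ± 0.20 (SD, n = 10) in KO beside 13.04 ± 0.14 (SD, n = 8) in WT, with an exact permutation p of 0.522. Of these 5 genes, 2 were higher and 3 lower in KO, with Ins1 at -0.68 and Ins2 at 0.28 (KO minus WT, log2). The mean of the list therefore joins differences of opposite sign. In whole islets, fewer cells of a type and less RNA per cell cannot be told apart.

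All 7 genes were measured, and 6 of them had more than 100 reads in every library. Levels are the authors' deposited log2 values, which are log2 of CPM, reads scaled to a common library size, plus a floor of 0.562. The kit reads transcript ends, so a level counts 3' ends and is not divided by transcript length. G6pc2 was highest, at a mean of 9.12 ± 0.24 (SD, n = 18), followed by Slc30a8 at 9.00 ± 0.32, Abcc8 at 8.76 ± 0.16 and Ucn3 at 8.58 ± 0.41. Slc2a2 followed at 7.73 ± 0.52, Kcnj11 at 6.17 ± 0.35 and Gipr at 1.24 ± 0.96. Among the 10509 genes these means ranked 61, 71, 98, 130, 356, 1500 and 9912. Neighbours among the 4 highest were closer than the larger of their SDs, so their values overlapped between libraries, and the order of neighbours was not tested. Of the genes further apart, G6pc2 lay above Abcc8 and Ucn3, and Slc30a8 above Ucn3, by more than either SD. Slc2a2, Kcnj11 and Gipr each lay below the gene before them by more than either SD. These SDs measure the spread between libraries and not the precision of a mean, and levels of different genes were not compared within libraries. The plot of all libraries shows the same ranges by genotype.

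**Figure D1:**
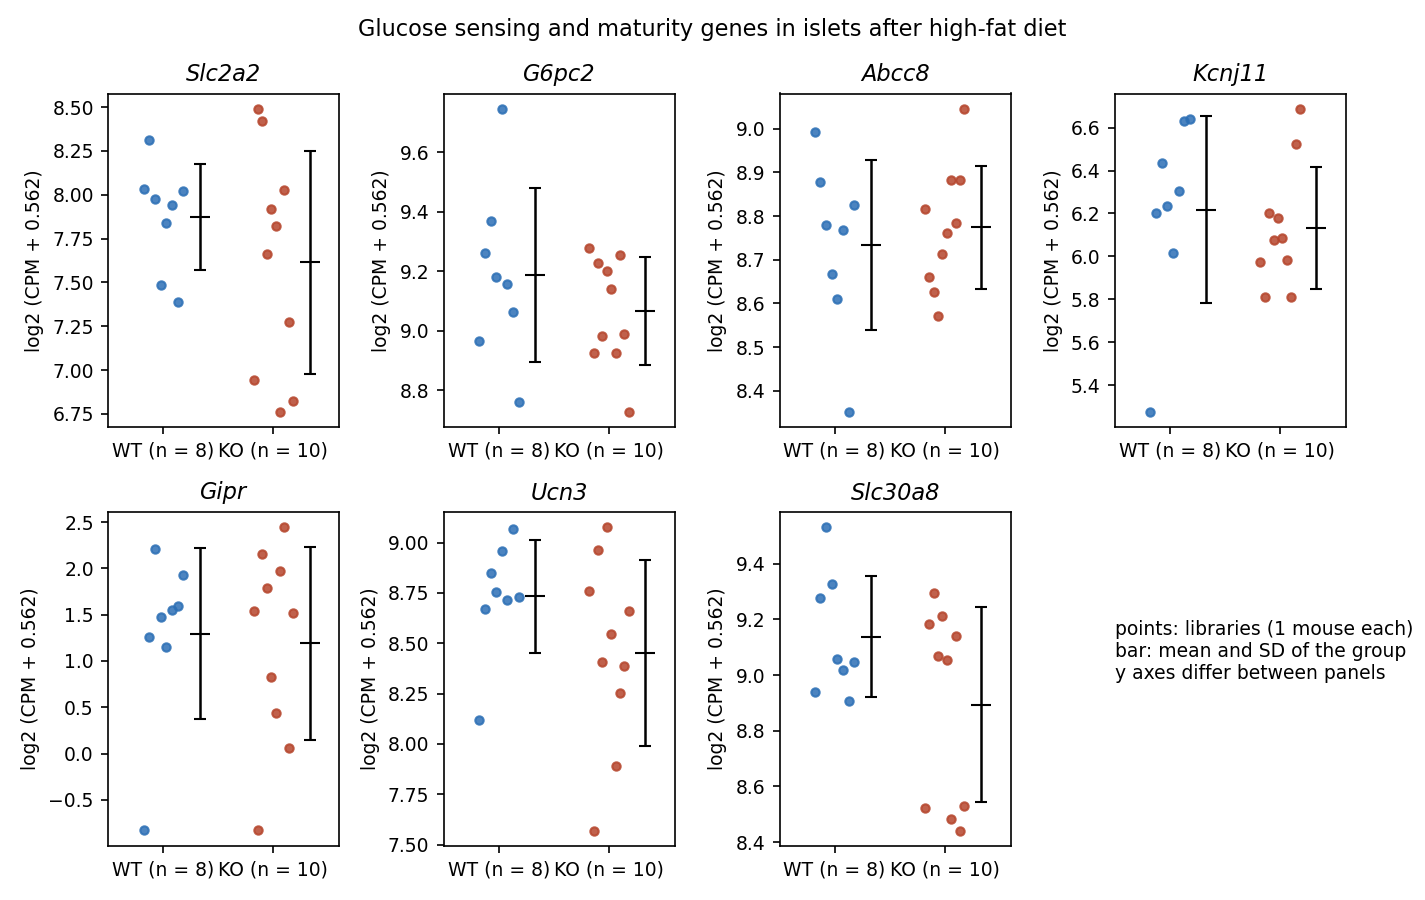
Level of each gene in the 18 islet libraries (y axis, log2 of CPM plus 0.562, a different range in each panel), with 8 WT libraries in blue and 10 KO libraries in red, and the group mean and SD as bars. Slc2a2 and Slc30a8 each have 4 KO libraries below every WT library, and the groups overlap for all 7 genes.

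None of the 7 genes was called different between KO and WT islets. At a limma adjusted p under 0.05, 0 of 7 were called against 0 of 10509 genes (percent called 0), and at an unadjusted p under 0.05 limma gave 0 of 7 against 5.4% of genes. An exact permutation test of the group means, run beside limma, gave 0 of 7 against 5.45% at an unadjusted p under 0.05, and 0% of genes after adjustment. The KO mean was lower for 6 of the 7 and higher for Abcc8, where 50.4% of all genes were lower. The median log2 difference was -0.12, beside -0.0025 over all genes. The 95% interval left out a 2-fold change in either direction for 6 of the 7 (all but Gipr), as for 77.1% of genes, and a 1.5-fold change for G6pc2, Abcc8, Kcnj11 and Slc30a8.

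Slc2a2 (Entrez 20526, chr3:28697903-28728361) ran from 6.76 through a median of 7.74 to 8.49 in KO and from 7.39 through 7.96 to 8.31 in WT. The KO libraries spanned both ends: KO 1, KO 7, KO 9 and KO 10 lay below every WT library and KO 2 and KO 3 above every WT library. The log2 difference, KO minus WT, was -0.26 (SE 0.21, 95% interval -0.69 to 0.17, fold 0.835; limma adjusted p = 0.955; exact permutation p = 0.302). Once KO 2, KO 3 and WT 7, the 3 with the largest numbers of unread genes, were left out, it was -0.54 (limma adjusted p = 0.486). KO 2 and KO 3 were the highest KO libraries and WT 7 the lowest WT library, so leaving them out had to lower the difference. In the 12 libraries of runs with both genotypes it was 0.04 with the run as a term. Slc2a2 also varied more than most of the genes with a mean log2 of at least 5, whatever their level. Its residual SD within genotype was 0.518, at the 90th percentile of these 3371 genes (median 0.339), while counting error at 364 to 1210 reads gives about 0.055.

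G6pc2 (Entrez 14378, chr2:69211073-69227993) ran from 8.73 through a median of 9.07 to 9.28 in KO and from 8.76 through 9.17 to 9.75 in WT. The groups overlapped, with WT 5 highest and KO 10 alone below the lowest WT library. The log2 difference was -0.12 (SE 0.13, 95% interval -0.38 to 0.14; limma adjusted p = 0.970; exact permutation p = 0.299). With 1288 to 3603 reads per library and a residual SD of 0.236, it was at the 12.5th percentile of the same 3371 genes.

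Abcc8 (Entrez 20927, chr7:46104523-46180039) ran from 8.57 through a median of 8.77 to 9.05 in KO and from 8.35 through 8.77 to 8.99 in WT. WT 7 was lowest and KO 10 highest, and the medians matched. The log2 difference was 0.04 (SE 0.11, 95% interval -0.19 to 0.27; limma adjusted p = 0.986; exact permutation p = 0.627). Its residual SD of 0.167 was at the 1.04th percentile, the smallest of the 7, on 794 to 2109 reads. Antisense and unconfirmed transcripts (Gm45486, Gm45487) overlap Abcc8 and an antisense transcript (1700112D23Rik) overlaps Slc2a2 in GENCODE M21. The sources used here do not say whether reads were counted by strand, so reads of these overlaps cannot be told apart.

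Kcnj11 (Entrez 16514, chr7:46097123-46100952), which encodes the pore of the same channel and lies 3570 bases from Abcc8, ran from 5.81 through a median of 6.08 to 6.69 in KO and from 5.27 through 6.27 to 6.64 in WT. The groups overlapped, and WT 1 stood below the other libraries. The log2 difference was -0.08 (SE 0.17, 95% interval -0.42 to 0.25; limma adjusted p = 0.980; exact permutation p = 0.637). At 147 to 402 reads it had a mean of 73.4 CPM where Abcc8 had 435, although the channel holds both subunits in equal number. The end of the gene differs between RefSeq and GENCODE M21 by 3170 bases for Kcnj11 and by 2998 bases for Slc2a2, and by at most 152 for the other 5. Which annotation was counted is not given, and 3' end reads are sensitive to it, so the level of Kcnj11 relative to Abcc8 carries this limit.

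Gipr (Entrez 381853, chr7:19156063-19170248) was close to the limit of detection, with 0 to 16 reads per library, a median of 7.5 and 0 reads in KO 2 and WT 1. It ran from -0.83 through a median of 1.53 to 2.45 in KO and from -0.83 through 1.51 to 2.21 in WT, where -0.83 is the floor. The medians were nearly equal and the ranges overlapped almost wholly. The log2 difference was -0.10 with a 95% interval of -1.05 to 0.85 (SE 0.46; limma adjusted p = 0.988; exact permutation p = 0.833), an interval that includes a 2-fold fall and leaves out a 2-fold rise. Counting error alone gives an SD of about 0.384, part of its residual SD of 0.992.

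Slc30a8 (Entrez 239436, chr15:52295553-52335798) ran from 8.44 through a median of 9.06 to 9.29 in KO and from 8.91 through 9.05 to 9.53 in WT. The KO libraries fell into 2 sets: KO 1, KO 7, KO 9 and KO 10 lay between 8.44 and 8.53, below every WT library, while the other 6 lay within the WT range. The group medians therefore matched while the means differed by -0.24 on the log2 scale (SE 0.14, 95% interval -0.54 to 0.05, fold 0.844; limma p = 0.0990, adjusted p = 0.945; exact permutation p = 0.105). The 4 low libraries are the same 4 as for Slc2a2, and only KO 7 of them belongs to a run of animal numbers with both genotypes. With the run as a term the difference was -0.10 over 12 libraries, and without KO 2, KO 3 and WT 7 it was -0.36 (limma adjusted p = 0.654). KO 2 and KO 3 lay above the KO mean and WT 7 was the lowest WT library, so leaving them out had to lower the difference.

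Ucn3 (Entrez 83428, chr13:3940688-3945349) ran from 7.57 through a median of 8.47 to 9.08 in KO and from 8.12 through 8.74 to 9.07 in WT. KO 2 and KO 7 lay below every WT library, and the highest libraries of both groups, KO 5 and WT 7, were level at 9.08 and 9.07. The log2 difference was -0.28 (SE 0.17, 95% interval -0.63 to 0.07, fold 0.823; limma p = 0.108, adjusted p = 0.945; exact permutation p = 0.154). It was -0.27 with the run as a term and -0.19 without KO 2, KO 3 and WT 7. Ucn3 and Slc30a8 had the smallest limma p of the 7 genes, and neither was under 0.05.

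**Figure D2:**
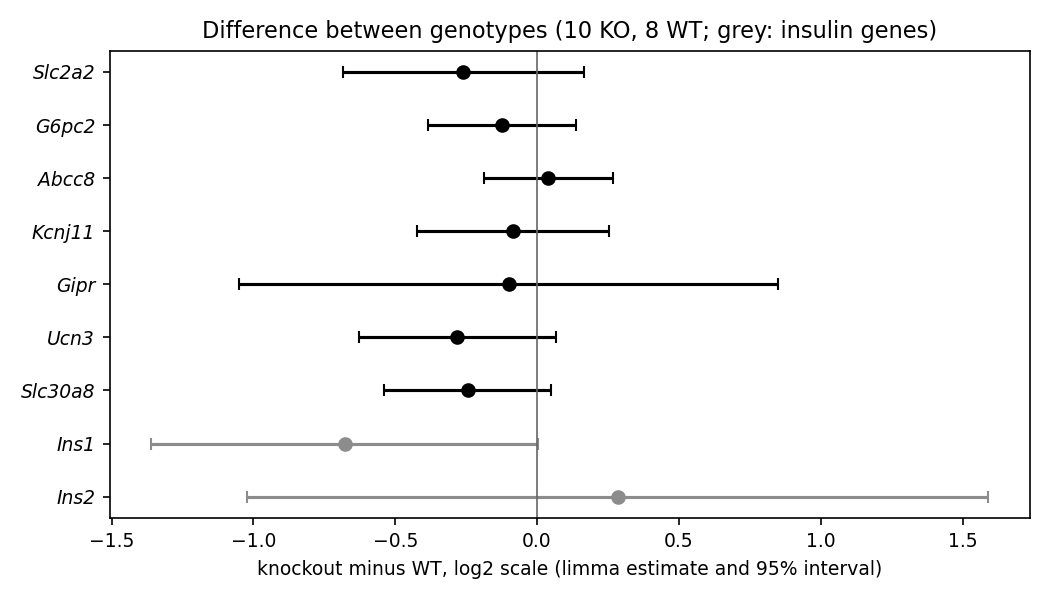
Difference of means, KO minus WT, for the 7 genes (black) and the insulin genes (grey), on the log2 scale (x axis), with limma's 95% interval. All 7 intervals of the glucose sensing and maturity genes include 0, and that of Gipr is the widest of the 7. For very abundant genes limma takes part of the spread from its variance trend. The SE of Ins2 was 0.64, above its residual SD within genotype of 0.32, so its grey interval is wide for the spread of its libraries.

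Other genes of the same pathways, listed by role, gave 0 called of 82 measured (of 100 listed), with 42 higher and 40 lower in KO and a median log2 difference of 0.01. The smallest limma adjusted p among them was 0.879. In glucose entry and early glucose metabolism, 6 of 12 measured genes were higher and 6 lower, with a median of 0.01. The transporter Slc2a1 (GLUT1) was at 0.91 (SE 0.34, limma p = 0.0118, adjusted p = 0.879; 7 to 106 reads), the only gene of the 82 at an unadjusted p under 0.05. Ldha, which makes lactate and is kept low in mature beta cells, was at 0.69 (5 to 102 reads). Hk1, a hexokinase with high glucose affinity, was at -0.60 (0 to 54 reads) and the mitochondrial shuttle enzyme Gpd2 at -0.19.

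Of 17 measured genes of the KATP channel group and membrane excitability, 12 were higher and 5 lower, with a median of 0.07. The sodium channel Scn9a was at 0.31, the potassium channel Kcnh2 at 0.30, and the calcium channel subunits Cacna1h (0 to 20 reads) and Cacnb2 at -0.15 and -0.06. Of 13 incretin and G protein signalling genes, 5 were higher and 8 lower, with a median of -0.05. They included the fatty acid receptor Ffar1 at 0.20, adenylate cyclase Adcy6 at 0.28, the catalytic subunit of protein kinase A Prkaca at -0.45 and the glucagon receptor Gcgr at -0.28. The GLP-1 receptor Glp1r was not found by symbol among the 10509 genes and so was not analysed here.

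Of 11 zinc transport and zinc storage genes, 8 were higher and 3 lower, with a median of 0.11, the opposite sign to Slc30a8. Slc30a9 was at 0.24 and Slc39a6 at 0.16, and Slc39a10 and Slc39a7 were at -0.20 and -0.08. Of 20 other genes of beta-cell maturity, 7 were higher and 13 lower, with a median of -0.04. Mafa was also on that list but was not found by symbol among the 10509 genes. The transcription factors Rfx6 (3 to 50 reads) and Nkx2-2 were at 0.56 and 0.24. The oxidoreductase Ero1b, which helps fold proinsulin, and the nuclear receptor Esrrg (2 to 38 reads) were at -0.29 and -0.42. Of 9 genes of immature or dedifferentiated beta cells, 4 were higher and 5 lower, with a median of -0.05. Aldh1a3, a marker of dedifferentiation, was at 1.00, Igf2 at 0.43 and Pyy at -0.29. None of these named genes was called.

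**Figure D3:**
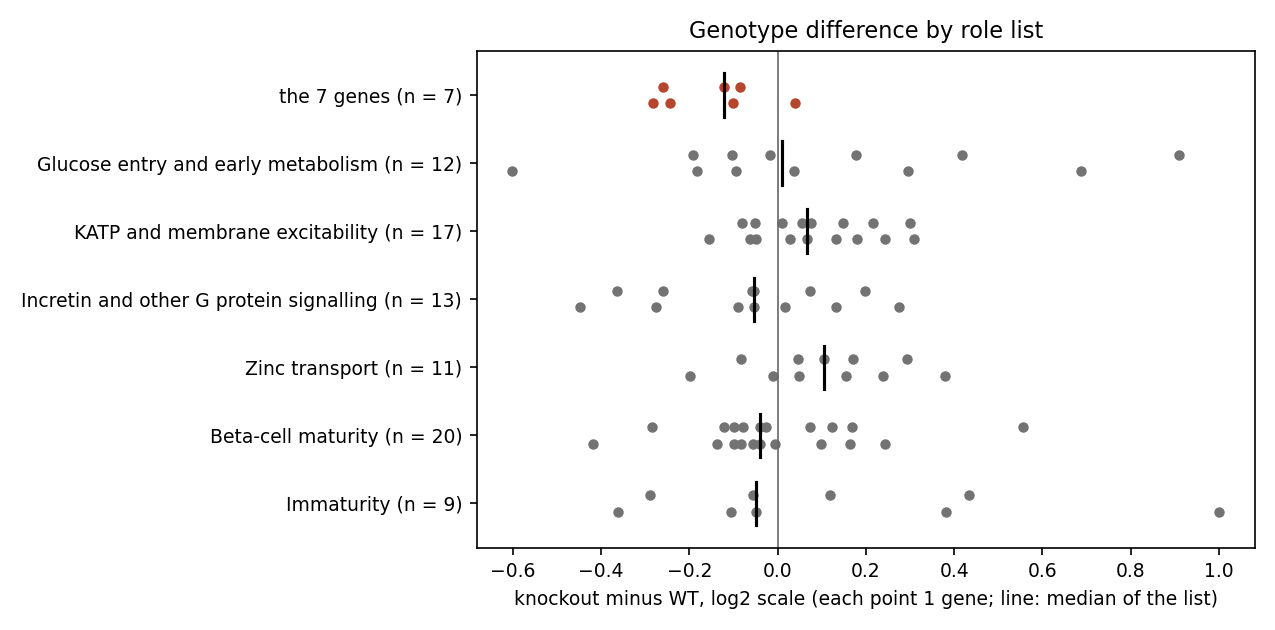
Log2 difference, KO minus WT (x axis), of every measured gene in the 6 role lists (grey) and of the 7 genes (red), 1 point per gene, with the median of each list as a vertical line. Medians lie between -0.12 for the 7 genes and 0.11 for zinc transport, and no point was called by limma.

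Marker lists of other cell types were set beside these differences, and 3 of them (alpha-cell, acinar and adipocyte) were used as covariates. The alpha-cell list (9 of 11 measured, 7 of 9 lower) had a mean log2 level of 5.21 ± 0.48 (SD, n = 10) in KO beside 5.62 ± 0.35 (SD, n = 8) in WT, an exact permutation p of 0.0613, and a summed level of 2161 to 9473 CPM in KO and 4000 to 11970 in WT; Irx1 was at 0 reads in some library. The adipocyte list (3 of 5 measured: Fabp4, Car3 and Adipoq, none at 0) was 3.45 ± 0.68 in KO and 2.74 ± 0.36 in WT (exact permutation p = 0.0188), with a summed level of 26.3 to 106 CPM in KO and 20.4 to 43.7 in WT. Its p was the smallest of the 10 marker lists, the beta-cell list included, and was not adjusted over them. With the alpha-cell score as a covariate the differences were -0.35 for Ucn3, -0.18 for Slc30a8 and -0.20 for Slc2a2, with limma adjusted p of 0.747, 0.858 and 0.903. With the adipocyte score, a fit added after seeing the data, they were -0.20 for Ucn3, -0.27 for Slc30a8 and -0.35 for Slc2a2 (limma adjusted p = 0.997 for each). With the acinar score they were -0.29, -0.26 and -0.27, with limma adjusted p of 0.876, 0.870 and 0.899. The part of the other lists in the results was not tested.

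Of the 7 genes, Ucn3 and Kcnj11 had the highest correlations with Ins1 across mice, and neither passed over all genes. Over 18 libraries, Pearson's r of Ucn3 with Ins1 was 0.61 (permutation p = 0.00803, adjusted p = 0.234 over 10508 genes) and Spearman's rho 0.55 (permutation p = 0.0190, adjusted p = 0.407). For Kcnj11 the values were r = 0.49 (permutation p = 0.0417, adjusted p = 0.361) and rho = 0.61 (permutation p = 0.00799, adjusted p = 0.356). Counted by Pearson's r, 2 of 7 genes had an unadjusted p under 0.05, against a background of 13.1%, and 0 of 7 passed after adjustment, against 0% of genes. Leaving out KO 7 and KO 8, the libraries farthest from the median of Ins1, gave r = 0.49 for Ucn3 (permutation p = 0.0594) and 0.45 for Kcnj11 (permutation p = 0.0835). Neither p was under 0.05 without them, but they had the lowest Ins1, so their loss narrows its range. Centred on genotype means, r was 0.535 for Ucn3 (permutation p = 0.0400, adjusted p = 0.383) and 0.52 for Kcnj11 (permutation p = 0.0171, adjusted p = 0.301). With 1 library left out, r with Ins1 was 0.51 (without KO 7) to 0.68 (without KO 2) for Ucn3. For Kcnj11 it was 0.40 (without WT 7) to 0.66 (without WT 1). The relation of Ucn3 was 0.53 within KO (n = 10, permutation p = 0.105), 0.54 within WT (n = 8, exact permutation p = 0.171) and 0.52 in the 12 libraries centred on their run. That of Kcnj11 was 0.60 within KO (permutation p = 0.0555), 0.54 within WT (exact permutation p = 0.168) and 0.21 in the 12 centred libraries.

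For the other 5 genes, r with Ins1 over the 18 libraries was 0.15 for Slc30a8, 0.06 for G6pc2, -0.05 for Slc2a2, -0.09 for Gipr and -0.25 for Abcc8, with permutation p of 0.314 or more. Within WT, r was -0.82 for Slc2a2 (n = 8, exact permutation p = 0.0118, adjusted p = 0.519) and -0.76 for Abcc8 (n = 8, exact permutation p = 0.0286, adjusted p = 0.554), and within KO -0.13 and 0.12. Ins1 itself was 15.36 ± 0.56 (SD, n = 10) in KO beside 16.04 ± 0.35 (SD, n = 8) in WT, and this difference of -0.68 did not pass over all genes (exact permutation p = 0.00443, adjusted p = 0.605; limma p = 0.0508, adjusted p = 0.926). For very abundant genes limma takes part of the spread from its variance trend, which is why the exact test was run beside it. For Ins1, 10 of 10 KO libraries lay below the WT mean and 8 below every WT library. The titles of KO and WT samples alike begin with Ins1Cre, a prefix that does not state whether a given mouse carried it. The Cre status of WT mice is therefore not known, and genotype and the Cre cannot be told apart here. Correlations with Ins1 over all 18 libraries include this difference between the groups. When values were centred on genotype means, r for G6pc2 and Slc30a8 turned negative, at -0.13 and -0.12.

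With Ins2, the most abundant transcript of these islets, none of the 7 genes had an unadjusted p under 0.05, where 14.2% of genes did and 0% passed after adjustment. The r values were 0.18 for Ucn3, 0.11 for Kcnj11, 0.09 for Gipr, 0.04 for Slc2a2, -0.04 for G6pc2, -0.11 for Slc30a8 and -0.35 for Abcc8 (permutation p = 0.153, adjusted p = 0.516). The value for Abcc8 became -0.05 without WT 7 and KO 3, the libraries farthest from the median of Ins2, and 0.08 without KO 2, KO 3 and WT 7. It was -0.55 without KO 10 (permutation p = 0.0239, adjusted p = 0.212), -0.74 within WT (n = 8, exact permutation p = 0.0459, adjusted p = 0.277) and -0.75 in the 12 libraries centred on their run (permutation p = 0.0438, adjusted p = 0.545). The insulin genes had r = 0.04 with each other. The points of each relation share a library, with its depth and cell makeup, and Ins2 alone takes a large share of the reads.

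**Figure D4:**
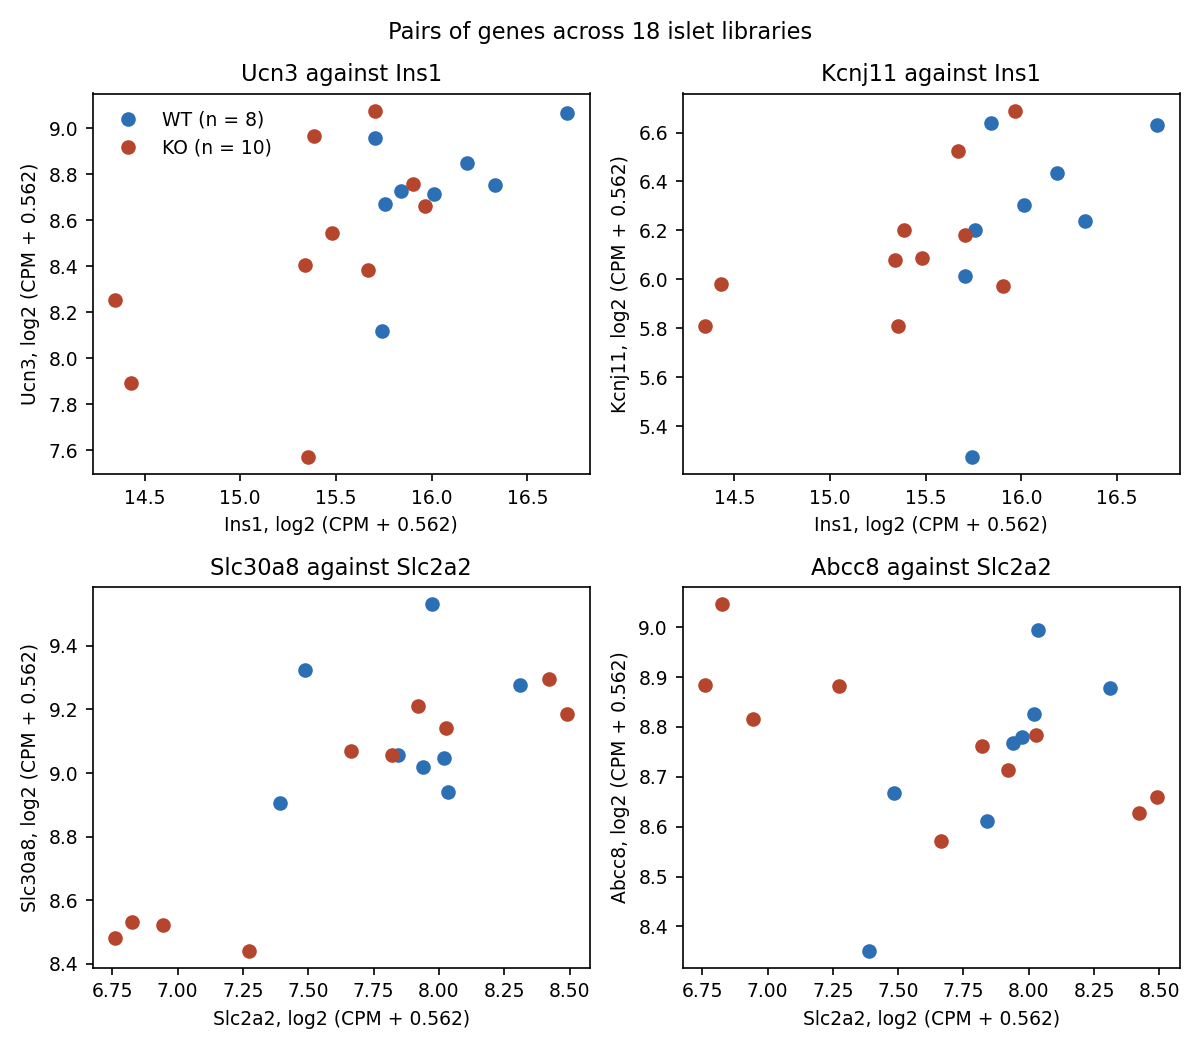
Level of 1 gene against another in the 18 islet libraries (both axes log2 of CPM plus 0.562), WT in blue and KO in red. Ucn3 and Kcnj11 increase with Ins1 (r of 0.61 and 0.49), 4 KO libraries are low in both Slc2a2 and Slc30a8, and Abcc8 against Slc2a2 slopes up in WT and down in KO.

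The 7 genes did not vary as a unit. Over their 21 pairs the median r was -0.02, with 10 positive and 11 negative, where the median over all pairs of genes was -0.0005. The range was -0.39 to 0.80, beside 5th and 95th percentiles of -0.48 and 0.50 over all pairs and -0.59 and 0.61 over pairs of genes with a mean log2 of at least 5. The channel subunits Abcc8 and Kcnj11 had r = -0.15 with each other, at 0.56 within KO and -0.55 within WT.

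The highest r, 0.80, was that of Slc2a2 with Slc30a8 (permutation p = 0.00011, adjusted p = 0.0970 over 10508 genes), with rho = 0.63 (permutation p = 0.00625). Against Slc2a2, 10.5% of genes had an unadjusted permutation p under 0.05 and 0% passed after adjustment. The points of this pair lay in separate sets. In KO 1, KO 7, KO 9 and KO 10, Slc2a2 lay between 6.76 and 7.27 and Slc30a8 between 8.44 and 8.53, and in the other 14 libraries no value was below 7.39 and 8.91. Over those 14 libraries r was 0.31, and over the 6 KO libraries among them 0.75. The 4 libraries were singled out for their low values of both genes, so leaving them out had to lower r. Centred on genotype means, r was 0.79 (permutation p = 0.00144, adjusted p = 0.266). In the 12 libraries centred on their run, which hold only KO 7 of the 4, it was 0.85 (permutation p = 0.0190, adjusted p = 0.9997). KO 7 was the lowest library of its run for both genes, at 6.76 and 8.48. The r without KO 7 was not computed in this setting, so it may rest on that library. Without KO 7 and KO 10, the libraries farthest from the median of Slc2a2, r was 0.69 (permutation p = 0.00399, adjusted p = 0.147), and leaving out 1 library at a time gave 0.75 to 0.86.

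Ucn3 with Kcnj11 followed at r = 0.55 (permutation p = 0.0197, adjusted p = 0.159; rho = 0.44, permutation p = 0.0721). It was 0.52 without KO 2 and KO 7, the libraries farthest from the median of Ucn3. Ucn3 with Gipr was at 0.47 and Ucn3 with G6pc2 at 0.44. Gipr had 0 reads in KO 2 and WT 1, the libraries with the lowest Ucn3 of their groups (7.57 and 8.12). The r of Ucn3 with Gipr without these libraries was not computed, so it may rest on them.

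Of the 7 genes, Ucn3 had the most genes varying with it. After adjustment, 303 of 10508 genes (2.88%) correlated with Ucn3, 195 of them positively, against 0% for each of the other 6 genes and for Ins1 and Ins2 over the 18 libraries; at an unadjusted p under 0.05 the share was 20.1%. The count rested on KO 2, the library with the lowest Ucn3: without KO 2 it was 0, and without KO 7 it was 110 and without WT 7 165, where leaving out any other single library gave 183 to 457, the highest without KO 3 (457) and KO 9 (454) and the lowest without KO 8. It was 0 within KO, within WT, in the 12 libraries centred on runs and without KO 2, KO 3 and WT 7, and 18 by Spearman's rho. Single libraries were also left out in turn for Slc2a2, Ins1 and Ins2, but not for the other 5 genes. The counts were then 62 for Slc2a2 without KO 7, 7 for Ins1 without WT 5, and for Ins2 13 without KO 10, 9 without KO 4 and 7 without WT 8, and 0 without any other single library.

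Some relations had opposite signs in the genotypes. Of 35 pairs compared (pairs of the 7 genes and their pairs with Ins1 and Ins2), 4 had an exact permutation p under 0.05 for the difference of r, and none passed after adjustment over all 10508 genes paired with the same gene. Slc2a2 with Abcc8 had r = -0.77 in KO (n = 10) and 0.82 in WT (n = 8), with an exact permutation p of 0.000571 for the difference and an adjusted p of 0.349 over all genes paired with Slc2a2. Against Slc2a2, 7.97% of genes had an unadjusted p under 0.05, and against Abcc8 8.4%. Leaving out 1 library at a time gave -0.87 to -0.71 in KO and 0.67 (without WT 7) to 0.89 in WT. Over the 6 KO libraries other than KO 1, KO 7, KO 9 and KO 10 it was -0.10, where those 4 were picked for low Slc2a2 and their loss narrows its range.

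The other 3 pairs differed in how far they depended on single libraries. Abcc8 with Slc30a8 was -0.80 in KO and 0.20 in WT (exact permutation p = 0.0210, adjusted p = 0.570 over all genes), and was -0.83 to -0.76 in KO with 1 library left out, -0.18 over the same 6 KO libraries, and -0.25 in WT without WT 7. Slc2a2 with Slc30a8 was 0.93 in KO and 0.20 in WT (exact permutation p = 0.010, adjusted p = 0.529), with 0.91 to 0.96 in KO when 1 library was left out and -0.12 in WT without WT 7. Kcnj11 with Gipr was -0.05 in KO and 0.94 in WT (exact permutation p = 0.0160, adjusted p = 0.909, background 3.23%), and 0.72 in WT without WT 1, which had 0 Gipr reads.

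**Figure D5:**
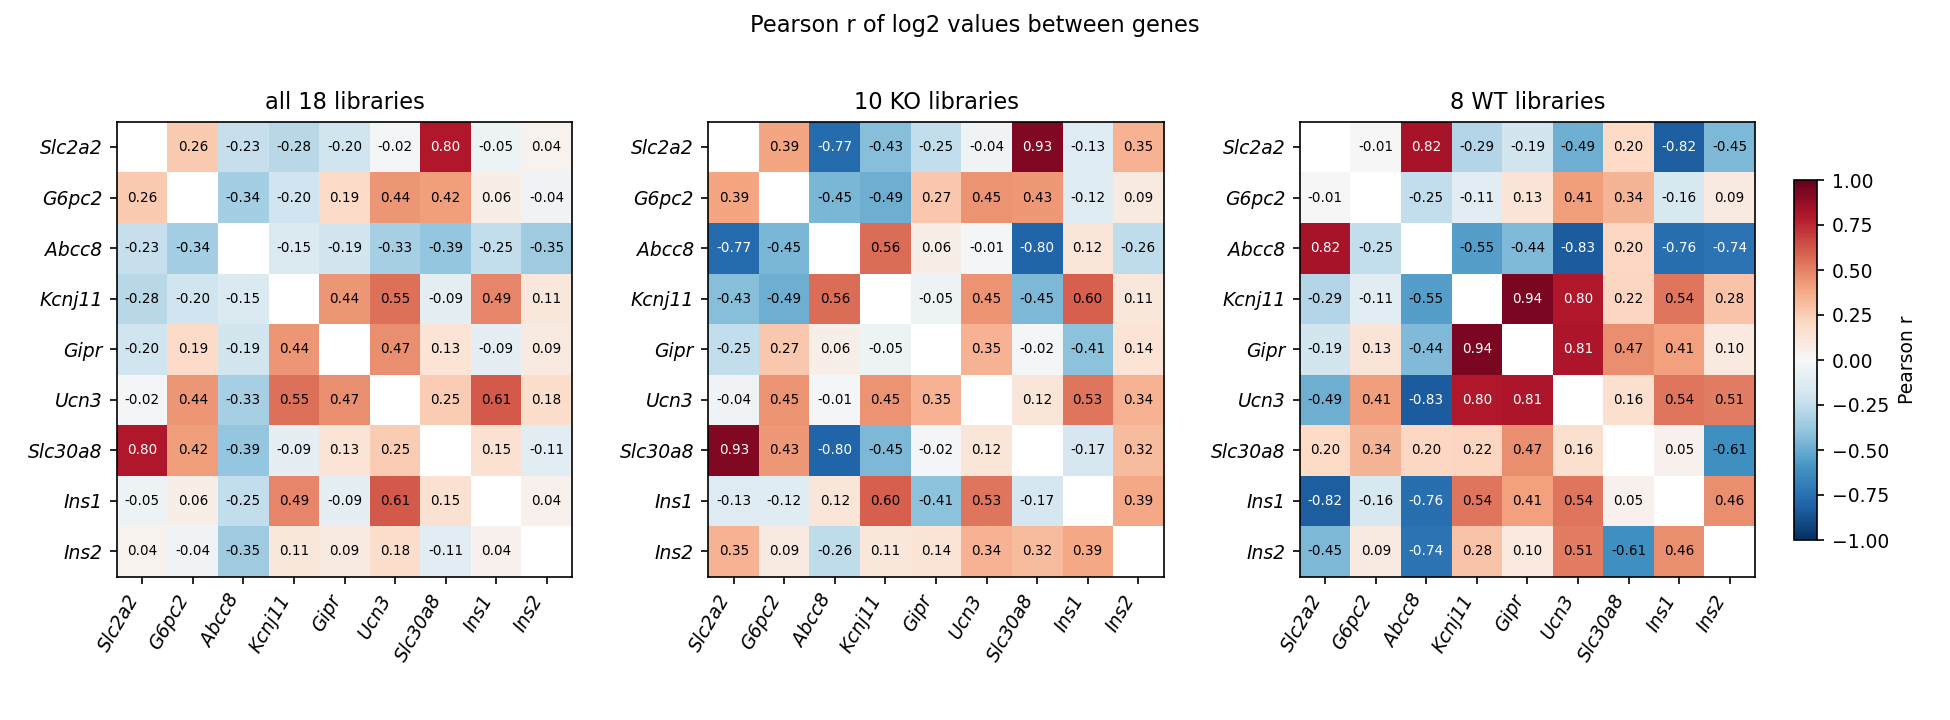
Pearson's r between the 7 genes, Ins1 and Ins2 over 18 libraries, 10 KO libraries and 8 WT libraries (rows and columns are genes, the colour scale runs from -1 to 1). Slc2a2 with Abcc8 is -0.77 in KO and 0.82 in WT, and Ucn3 with Ins1 is positive in all 3 grids.

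By their pattern over the 18 libraries, the genes most like each of the 7 were taken from 3365 genes with a mean log2 of at least 5, with Pearson's r as the measure. For Slc2a2 they were Chic1 (r = 0.88), Myo10 (0.81) and Ip6k1 (0.81), and for Slc30a8 they were Ppp1r1a (0.81), Ip6k1 (0.78) and Zhx3 (0.75), so Ip6k1, an inositol hexakisphosphate kinase, was shared. Ppp1r1a encodes an inhibitor of protein phosphatase. For Ucn3 they were Qdpr, which regenerates tetrahydrobiopterin, the vesicle traffic GTPase Arf5 and the cytochrome oxidase assembly factor Coa3, each at r = 0.91. For G6pc2 they were the secretory pathway genes Scfd1 (0.85) and Uso1 (0.77), with Mbd3 (0.78). For Abcc8 they were Mars1 (0.77), Nudt16l1 (0.76) and Mfsd1 (0.75), for Kcnj11 Pithd1 (0.80), the elongation factor Eef2 (0.76) and Pttg1ip (0.74), and for Gipr Dap3 (0.78), Nfyb (0.71) and Tmem238 (0.68). Highest values picked out of 3365 are large by selection, and they are given as a description.

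Scores of 10 marker lists, depth, the number of genes at 0 reads and the share of Ins2 in reads were set against the 7 genes, 91 relations in all, and none passed after adjustment over the 91. The largest was Abcc8 with the endothelial list at r = 0.61 (permutation p = 0.00782, adjusted p = 0.686; rho = 0.43, permutation p = 0.0781), which was 0.18 without KO 10 and WT 7. Abcc8 with the number of genes at 0 reads was -0.53 (permutation p = 0.0273; rho = -0.31, permutation p = 0.207) and -0.07 without KO 2 and WT 7. Ucn3 with the stromal list was -0.50 (permutation p = 0.0324; rho = -0.41, permutation p = 0.0881) and -0.48 without KO 10 and WT 5. These 3 were chosen by r, and rho was not adjusted over the 91. By rho, Slc2a2 with the number of genes at 0 reads was 0.58 (permutation p = 0.012), with r = 0.35, and r = 0.55 without KO 2 and WT 7. The endothelial list had rho = -0.54 with Ucn3 (permutation p = 0.0214) and -0.51 with G6pc2 (permutation p = 0.0315). Slc30a8 with the acinar list had rho = 0.50 (permutation p = 0.0383). None of these relations was tested further.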

How the data were processed

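RNA of pancreatic islets from 10 KO and 8 WT mice was sequenced from transcript 3' ends (QuantSeq FWD kit, per the labels). Per the submitters' processing notes the tools were STAR 2.5.2, HTSeq 0.6.1 and edgeR with the build GRCm38, with no roles stated. The annotation, strand setting, filter and prior count are not stated. The authors deposited log2 values of 10509 genes. After subtracting the shared floor of 0.562 CPM, 100% of values were whole reads within 0.05 reads, so they are log2 of CPM plus that floor, and fold changes of genes with few reads are understated. PCR copies are not independent molecules, so counting error is a lower limit.

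Samples were grouped by the genotype label and numbered within a group in accession order. Genotypes were compared with limma 3.58.1 in R 4.3.3 (empirical Bayes with a variance trend, two-sided) on all 10509 genes, with Benjamini-Hochberg adjustment over all of them. Requiring a log2 value above 0 in 8 or more samples took out 0 genes. Beside it ran a two-sided exact permutation test over 43758 regroupings. Correlations were computed for every gene against each target, with 100000 permutations (40320, all of them, for 8 samples), and the difference of r between genotypes by exact permutation of values centred on genotype means. The limma and correlation steps were tested on simulated data. The members and the gene lists were chosen with earlier results of these data known.

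Named genes are the 7, Ins1, Ins2 and Nmrk1, up to 2 genes of smallest p in each direction per role list, and the 3 genes most like each of the 7. Some genes that this rule names are not reported here. Coordinates are from RefSeq (GRCm38.p6), and 3 of the 7 genes had an entry in its promoter table. Alternatives changed the filter, pseudocount, scaling, variance model, weights, test, covariates and samples. The adipocyte covariate, the settings for pairs among the 7 genes and the differences of r between genotypes were chosen after seeing the data.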

Additional observations from a re-analysis of the deposited data

Results flagged for a closer look

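The log2 level was checked in each genotype for a single sample far from the rest, over 18 groups (the 7 genes, Ins1 and Ins2 in KO and in WT), and chance flags about 1 in 20 such groups. Kcnj11 was lowest in WT 1 at 5.27 (158 reads), where the next WT library was at 6.01, a gap of 0.542 of the group's range. Gipr was also lowest in WT 1, at -0.83 (0 reads), with the next at 1.16 and a gap of 0.655 of the range. Ucn3 was lowest in WT 1 as well, at 8.12 (1149 reads), with the next at 8.67 and a gap of 0.582 of the range. All 3 came from the same library, so they are not separate events. Without WT 1 the genotype differences were -0.22 for Kcnj11, -0.40 for Gipr and -0.37 for Ucn3, and none was called (limma adjusted p under 0.05).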

How the results depend on the processing

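No genotype call depended on the processing: over 35 settings of the genotype test, 18 of them leaving out 1 library, limma, voom and the rank-sum test called 0 genes and 0 of the 7, and the smallest adjusted p of any of the 7 in a limma setting was 0.486. No insulin correlation of the 7 passed in any setting run (smallest adjusted p 0.136). With no filter the genes were the same, the stricter filter of log2 above 3 left out Gipr, and quantile normalization gave Ins1 and Ins2 constant values and so no correlation. The labels give no replicate numbers shared between the groups, so no pairing by replicate was made, and the run of animal numbers was the only block used. Counting error was largest for Gipr.

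Of 244 recomputed differences, 15 changed sign, in 4 genes, with adjusted p far above the threshold, and the cause was not tested. With the run as a term over 12 libraries, the log2 difference was 0.043 for Slc2a2, -0.082 for Abcc8, 0.0065 for Kcnj11 and 0.098 for Gipr, and without the term -0.072 for Abcc8 and 0.21 for Gipr. Without KO 2, KO 3 and WT 7 it was 0.0070 for Kcnj11 and 0.075 for Gipr, with the alpha-cell score 0.042 for Gipr, and with the adipocyte score 0.058 for Kcnj11 and 0.32 for Gipr. Leaving out 1 library gave -0.015 (without WT 7) to 0.077 for Abcc8 and -0.40 (without WT 1) to 0.12 (without KO 2) for Gipr, which was also above 0 without KO 9 or WT 3.

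Correlations near 0 also changed sign. With Ins1, leaving out 1 library gave -0.39 to 0.038 for Slc2a2, -0.056 to 0.17 for G6pc2, -0.35 to 0.045 for Abcc8, -0.20 to 0.11 for Gipr and -0.086 to 0.26 for Slc30a8. With Ins2 it gave -0.22 to 0.18 for Slc2a2, -0.14 to 0.084 for G6pc2, -0.016 to 0.19 for Kcnj11 and -0.072 to 0.28 for Gipr. Spearman's rho was 0.0072 for Abcc8 with Ins1, and -0.059 for Slc2a2 and -0.024 for Kcnj11 with Ins2. Without the 2 farthest libraries r was 0.36 for Gipr and -0.028 for Slc30a8 with Ins1, and -0.17 for Slc2a2, -0.013 for Kcnj11, -0.13 for Gipr and -0.11 for Ucn3 with Ins2. Without KO 2, KO 3 and WT 7 it was 0.13 for Slc2a2 with Ins1, and 0.083 for Abcc8 and -0.43 for Slc2a2 with Ins2. Centred on genotype means it was -0.13 for G6pc2 and -0.12 for Slc30a8 with Ins1, and 0.085 and 0.066 with Ins2. Within KO it was -0.12 for G6pc2, 0.12 for Abcc8 and -0.17 for Slc30a8 with Ins1, and 0.092 for G6pc2 and 0.32 for Slc30a8 with Ins2. Within WT it was -0.16 for G6pc2 and 0.41 for Gipr with Ins1, and -0.45 for Slc2a2 and 0.089 for G6pc2 with Ins2. In the 12 libraries centred on runs it was 0.20 for Slc2a2 with Ins1, and 0.12 for G6pc2 and 0.12 for Slc30a8 with Ins2. Median centring gave 0.077 for G6pc2 with Ins2.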
